A study of Mus musculus with 6 samples.

Results

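The genes that write methylation on lysine 4 of histone H3 (H3K4) were followed in cultured neonatal mouse cardiomyocytes (CMs) treated with cell-permeable α-ketoglutarate (αKG). The set held 10 genes, chosen by symbol from the 20066 genes of the deposited table, and all 10 were listed. It comprised 7 genes of the KMT2 and SETD1 methyltransferase family (Kmt2a, Kmt2b, Kmt2c, Kmt2d, Kmt2e, Setd1a and Setd1b) and 3 genes of the core that these enzymes share (Ash2l, Wdr5 and Rbbp5). CMs of C57BL/6 pups at P0 to P1 were kept for 96 h in dimethylsulfoxide (DMSO), the solvent, or in αKG at 100 μM as the labels give it, with 3 libraries of total RNA per group. The study's methods state another, higher concentration for octyl-αKG, the ester they list, so the dose is given here as labelled only. No genotype, transgene or second agent separated the groups, and the labels do not say whether the 3 libraries of a group came from separate isolations of cells. The study's imaging methods count each isolation from pooled hearts as a sample, but do not speak of the RNA libraries, so that p-values measure the spread between these libraries, which may be technical.

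Methylated H3K4 marks active chromatin. Trimethylation (H3K4me3) sits on active promoters and monomethylation on enhancers, and both are written by SET-domain enzymes that work poorly unless bound to a core of WDR5, RBBP5, ASH2L and DPY30. KMT2A and KMT2B form complexes with menin and act on developmental promoters, KMT2C and KMT2D act mainly on enhancers, and SETD1A and SETD1B write most H3K4me3 of the cell. KMT2E carries a SET domain of the same family but is regarded as inactive as an enzyme. The opposing enzymes of the KDM5 family, which remove H3K4me3, use αKG as a cosubstrate, whereas the writers use S-adenosylmethionine. The question put to the data here was whether the messenger RNAs of the writers differed between αKG and DMSO.

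Several of these complexes find their sites through CXXC domains, which bind unmethylated CpG, the dinucleotide that is dense in most housekeeping promoters. The promoters of the set are therefore shown by their own CpG content. RefSeq (GRCm38.p6) gave the 250 bases before its own start of 6 of the 10 genes, and 4 are printed here, with every CpG in capitals, because they span the range from the most to the least CpG found among them. They read, in the direction of transcription, as follows for Kmt2c (chr5:25498784-25499033, minus strand), Kmt2a (chr9:44881290-44881539, minus strand), Wdr5 (chr2:27514897-27515146, plus strand) and Rbbp5 (chr1:132477117-132477366, plus strand).
Kmt2c: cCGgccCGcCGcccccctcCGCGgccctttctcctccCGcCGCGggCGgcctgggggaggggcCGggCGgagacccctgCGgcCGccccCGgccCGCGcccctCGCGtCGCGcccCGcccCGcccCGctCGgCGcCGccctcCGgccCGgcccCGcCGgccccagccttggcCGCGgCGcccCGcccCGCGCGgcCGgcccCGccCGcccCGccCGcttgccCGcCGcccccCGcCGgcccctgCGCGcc
Kmt2a: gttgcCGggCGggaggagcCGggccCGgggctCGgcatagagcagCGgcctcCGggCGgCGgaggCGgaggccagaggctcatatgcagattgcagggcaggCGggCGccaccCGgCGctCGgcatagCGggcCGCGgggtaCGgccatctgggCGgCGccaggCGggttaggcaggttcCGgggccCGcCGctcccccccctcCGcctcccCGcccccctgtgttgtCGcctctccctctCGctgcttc
Wdr5: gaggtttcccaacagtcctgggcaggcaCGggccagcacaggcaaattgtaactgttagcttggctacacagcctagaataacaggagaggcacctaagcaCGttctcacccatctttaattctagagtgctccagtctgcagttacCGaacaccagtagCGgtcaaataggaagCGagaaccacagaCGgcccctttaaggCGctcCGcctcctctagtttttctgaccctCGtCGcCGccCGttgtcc
Rbbp5: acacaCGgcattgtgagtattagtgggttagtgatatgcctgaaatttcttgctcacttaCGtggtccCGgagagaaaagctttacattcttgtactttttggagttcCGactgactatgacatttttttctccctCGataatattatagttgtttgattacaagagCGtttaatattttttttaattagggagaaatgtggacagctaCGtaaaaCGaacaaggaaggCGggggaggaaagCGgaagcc

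The Kmt2c window held 48 CpG, the Kmt2a window 29, the Wdr5 window 12 and the Rbbp5 window 10. Kmt2d, with 26 CpG, and Setd1a, with 25, lay between them. The Setd1a window (chr7:127777139-127777388, plus strand) lies inside the gene as the deposited table places it, downstream of the start used below. All 6 windows were above the median of 6 CpG over 32817 mouse promoter windows of the same length, whose quartiles were 2 and 16, although Wdr5 and Rbbp5 stayed below the upper quartile. The GC box (GGGCGG on either strand, which Sp1-type factors bind) was found in 4 of the 6 windows, with 12 matches in Kmt2c, 4 in Kmt2a, 4 in Kmt2d and 1 in Wdr5, against 32.7% of all windows with at least 1 match. On either strand, 5 further motifs were absent from all 6 windows. The CCAAT box (letters as its name) was present in 33.8% of all windows and the TATA box, searched as TATAAA, in 12.4%. The ETS site, searched as CCGGAAG, was present in 6.90%, the E box (CACGTG) in 6.02% and the core of the NRF1 site, searched as GCGCATGC, in 2.25%. No binding was measured in these cultures, and a match or its absence concerns these letters in these windows only. RefSeq windows for Kmt2b, Kmt2e, Setd1b and Ash2l were not used here.

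The values are normalized counts, that is, reads per gene divided by one size factor per library by the authors and rounded to whole numbers. Behind them stood an estimated 3725595 to 4428895 reads per library. Two-sided limma tests on log2(value + 1), with Benjamini-Hochberg adjustment over all 20066 genes, called 759 genes at an adjusted p under 0.05, of which 568 (2.83% of all genes) were higher and 191 (0.952%) lower in αKG. After correction of each library for exon length and GC content the split was 525 higher and 710 lower. The median corrected difference was −0.05 over all genes and −0.16 over the genes with a mean of at least 50. αKG replicate 3 stood apart from the other αKG libraries: it correlated at 0.977 to 0.980 with the 3 DMSO libraries and at 0.962 and 0.963 with αKG replicates 1 and 2 (Pearson, log2 values). Without it the number of called genes was 7466. The difference of each gene is therefore given with all libraries and without αKG replicate 3.

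None of the 10 genes passed the test between αKG and DMSO (limma, 0 of 10 with an adjusted p under 0.05), where 3.78% of all genes and 5.87% of the genes with a mean of at least 50 did. After the correction for exon length and GC content the count was again 0 of 10, where 6.15% of all genes were called. At an unadjusted p under 0.05 the count was 1 of 10, Ash2l, against 28.1% of all genes, and limma-voom on estimated reads also called 0. The fitted log2 fold changes ran from −0.24 for Ash2l to 0.15 for Kmt2a, with standard errors of 0.06 to 0.15. In this fit of all 6 libraries without correction, all 95% intervals lay between −0.45 and 0.34 on the log2 scale. Other settings reached further. The interval of Kmt2a rose to 0.4 without αKG replicate 3. That of Ash2l fell to −0.62 with the correction and to −0.63 with the correction and without αKG replicate 3. The spread between the αKG libraries was 1.82 to 13.9% (coefficient of variation, n = 3) and that between the DMSO libraries 1.13 to 5.74%.

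Without αKG replicate 3, 4 of the 10 genes passed, Kmt2a as higher and Setd1b, Ash2l and Wdr5 as lower in αKG. This share is read against 37.2% of all genes called in the same fit, 19.3% higher and 17.9% lower, and against 50.9% of the 10183 genes whose mean was 50 or more. With the correction as well, 7 of the 10 passed, all as lower, where 43.6% of all genes did, 16.8% as higher and 26.8% as lower. For that fit no share was taken over the genes with a mean of at least 50. Their median corrected difference with all libraries was −0.16, so these 7 calls cannot be set against genes of like expression. The values of αKG replicate 3 fell inside the DMSO range for 8 of the 10 genes, below it for Ash2l and above it for Kmt2b. Both other αKG libraries lay above every DMSO library for 2 genes, Kmt2a and Kmt2c (30.4% of all genes), and below every DMSO library for 4, Setd1b, Ash2l, Wdr5 and Rbbp5 (27.4% of all genes).

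**Figure D1:**
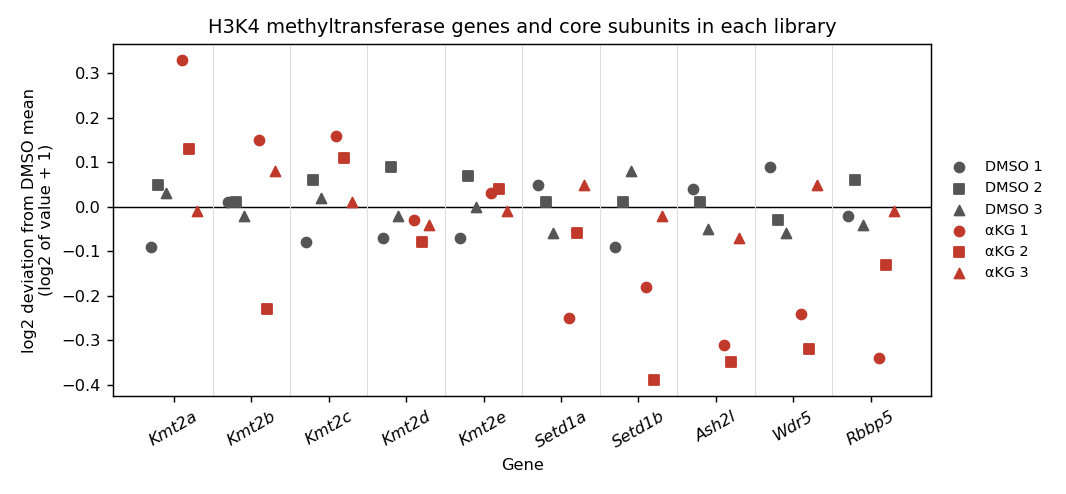
Deviation of each library from the mean of the DMSO libraries for the 10 genes, on the y axis as a difference of log2(value + 1), with DMSO libraries in grey and αKG libraries in red and a symbol for each replicate. The red circles and squares (αKG replicates 1 and 2) lie above the DMSO points for Kmt2a and Kmt2c and below them for Setd1b, Ash2l, Wdr5 and Rbbp5, whereas the red triangles (αKG replicate 3) lie between −0.07 and 0.08.

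Kmt2a and Kmt2b are the mammalian relatives of Drosophila trithorax. Kmt2a (ENSMUSG00000002028, chr9:44803355-44881296, minus strand, GRCm38), the gene rearranged in many leukaemias, had normalized counts of 1061, 1170 and 1152 in the DMSO libraries and of 1412, 1234 and 1118 in the αKG libraries. αKG replicates 1 and 2 were above every DMSO library and αKG replicate 3 was among them. The difference was 0.15 ± 0.09 on the log2 scale (SE, n = 3 per group), a mean of 1128 ± 58.4 in DMSO and 1255 ± 148 in αKG (SD), with a limma adjusted p of 0.292. Without αKG replicate 3 it was 0.23 ± 0.07 with an adjusted p of 0.0461. Corrected for exon length and GC content, it was 0.02 ± 0.07 with all libraries and 0.05 ± 0.06 without αKG replicate 3, both past no threshold (limma adjusted p = 0.875 and 0.495).

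Kmt2b (ENSMUSG00000006307, chr7:30568858-30588726, minus strand), which is needed for H3K4me3 on many CpG-rich promoters in oocytes and embryonic stem cells, had normalized counts of 559, 556 and 547 in DMSO and of 613, 473 and 587 in αKG. The αKG libraries lay on both sides of a narrow DMSO range. Its log2 difference was 0.00 ± 0.10 with a 95% interval of −0.22 to 0.22 (limma adjusted p = 1.0), and −0.04 ± 0.10 without αKG replicate 3. Corrected, it was 0.01 ± 0.09 and −0.03 ± 0.07. The coefficient of variation of the DMSO libraries was 1.13%, less than the 4.22% that counting alone would give at this depth. The ratio of Kmt2a to Kmt2b was 1.90, 2.10 and 2.11 in DMSO and 2.30, 2.61 and 1.90 in αKG, and the groups overlapped.

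Kmt2c and Kmt2d code for very large proteins that monomethylate enhancers, and Kmt2d is required for heart development and is mutated in Kabuki syndrome. Kmt2c (ENSMUSG00000038056, chr5:25271798-25498783, minus strand) had normalized counts of 1664, 1828 and 1781 in DMSO and of 1964, 1890 and 1774 in αKG. The difference was 0.09 ± 0.06 (limma adjusted p = 0.342), and 0.13 ± 0.05 without αKG replicate 3 (adjusted p = 0.0719). With the correction for exon length and GC content its sign turned, to −0.13 ± 0.07 with all libraries (adjusted p = 0.193) and −0.18 ± 0.04 without αKG replicate 3 (adjusted p = 0.00383). The direction for Kmt2c thus depended on this joint correction, and exon length and GC content were not corrected for singly.

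Kmt2d (ENSMUSG00000048154, chr15:98831669-98871204, minus strand) had normalized counts of 1786, 1994 and 1842 in DMSO and of 1836, 1768 and 1824 in αKG. The groups overlapped, with a difference of −0.05 ± 0.06 (limma adjusted p = 0.601) and −0.06 ± 0.05 without αKG replicate 3. The corrected difference was −0.15 ± 0.08 with all libraries (adjusted p = 0.204) and passed the test without αKG replicate 3, at −0.22 ± 0.05 (adjusted p = 0.00276). The ratio of Kmt2c to Kmt2d was 0.932, 0.917 and 0.967 in DMSO and 1.07, 1.07 and 0.973 in αKG. Every αKG library was above every DMSO library in this ratio, with an exact two-sided permutation p of 0.1, the smallest that 3 libraries against 3 allow, and an adjusted p of 0.3 over the 6 ratios tested. Both genes have about 20 kb of exon (20.29 and 19.93 kb) but differ in GC content (47.6% and 58.4%). Their corrected differences with all libraries were close, at −0.13 ± 0.07 for Kmt2c and −0.15 ± 0.08 for Kmt2d, and the ratio was not tested after the correction.

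Kmt2e (ENSMUSG00000029004, chr5:23434441-23504235, plus strand), the family member regarded as catalytically inactive, had normalized counts of 1163, 1276 and 1218 in DMSO and of 1243, 1250 and 1208 in αKG. All αKG values lay inside the DMSO range. The difference of 0.02 ± 0.06 (limma adjusted p = 0.864) had an interval of −0.12 to 0.15, and it was 0.03 ± 0.05 without αKG replicate 3. Under the correction it turned to −0.13 ± 0.07 (limma adjusted p = 0.21), where the median of the genes with a mean of at least 50 was −0.16. Without αKG replicate 3 the corrected difference of −0.15 ± 0.05 passed as lower (limma adjusted p = 0.0217). Kmt2e shares 9.31% of its exon bases with Srpk2 on the opposite strand, whose own difference was −0.00 ± 0.07.

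Setd1a and Setd1b code for the catalytic subunits of the SET1/COMPASS complexes. Setd1a (ENSMUSG00000042308, chr7:127776670-127800122, plus strand) had the lowest values of the set, with normalized counts of 93, 90 and 86 in DMSO and of 75, 86 and 93 in αKG. The groups overlapped, and the difference of −0.09 ± 0.15 (limma adjusted p = 0.719) left an interval of −0.41 to 0.24, the widest of the methyltransferases. It was −0.16 ± 0.11 without αKG replicate 3, and −0.06 ± 0.15 and −0.12 ± 0.13 after the correction. Of its exon bases, 51.85% are also exon of the readthrough gene Gm49388 on the same strand, and the authors left out reads of several genes, so the level of Setd1a is uncertain.

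Setd1b (ENSMUSG00000038384, chr5:123142193-123168629, plus strand) had normalized counts of 660, 707 and 740 in DMSO and of 621, 537 and 694 in αKG. αKG replicates 1 and 2 were below every DMSO library, and αKG replicate 3 was among them. The difference was −0.19 ± 0.10 (limma adjusted p = 0.23), and −0.28 ± 0.08 without αKG replicate 3 (adjusted p = 0.0337). The correction moved it little, to −0.21 ± 0.11 with all libraries and −0.32 ± 0.07 without αKG replicate 3 (limma adjusted p = 0.20 and 0.0022). The ratio of Setd1b to Setd1a was 7.10 to 8.60 in DMSO and 6.24 to 8.28 in αKG.

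The core subunits had a lower mean in αKG than in DMSO for each of the 3 genes. Ash2l (ENSMUSG00000031575, chr8:25815996-25847694, minus strand) codes for a protein whose SPRY domain contacts RBBP5. Ash2l had normalized counts of 507, 497 and 477 in DMSO and of 398, 387 and 470 in αKG. It was the single gene of the set whose groups did not overlap, where 14.6% of all genes were lower without overlap and 13.7% higher, and 39.3% of those with a mean of at least 50 did not overlap in either direction. The mean was 494 ± 15.3 in DMSO and 418 ± 45.1 in αKG (SD, n = 3 per group), a log2 difference of −0.24 ± 0.09 with an interval of −0.45 to −0.04. Its unadjusted p was 0.0247 and its limma adjusted p 0.127. Without αKG replicate 3 the difference was −0.33 ± 0.05 (adjusted p = 0.00485), with the correction −0.38 ± 0.11 (adjusted p = 0.0565), and with both −0.50 ± 0.06 (adjusted p = 3.2e-05).

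Wdr5 (ENSMUSG00000026917, chr2:27515157-27536535, plus strand), the propeller protein that holds the enzyme to the core, had normalized counts of 196, 181 and 177 in DMSO and of 156, 148 and 191 in αKG. αKG replicates 1 and 2 were below every DMSO library, while αKG replicate 3 was near the highest. The difference was −0.17 ± 0.13 (limma adjusted p = 0.394), and −0.28 ± 0.08 without αKG replicate 3 (adjusted p = 0.0357). The corrected differences were much the same, at −0.18 ± 0.13 and −0.28 ± 0.09 (adjusted p = 0.372 and 0.0209). Rbbp5 (ENSMUSG00000026439, chr1:132477365-132505659, plus strand), which joins WDR5 to ASH2L, had normalized counts of 434, 459 and 430 in DMSO and of 349, 404 and 438 in αKG. Its difference was −0.16 ± 0.10 (limma adjusted p = 0.31), and −0.23 ± 0.08 without αKG replicate 3 (adjusted p = 0.0539). Corrected, it was −0.25 ± 0.11 with all libraries (adjusted p = 0.147), and −0.35 ± 0.07 without αKG replicate 3, which passed (adjusted p = 0.00221).

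Dpy30, which completes the core and is named here outside the rule for its list, after its values were seen, had normalized counts of 79, 74 and 81 in DMSO and of 56, 63 and 75 in αKG. Its difference was −0.28 ± 0.17 (limma adjusted p = 0.299), and −0.39 without αKG replicate 3 (adjusted p = 0.0427). The median log2 difference of the 3 core subunits was −0.17 and that of the 7 methyltransferases 0.00, beside 0.04 over all genes tested and −0.07 over the genes with a mean of at least 50. Of these more highly expressed genes 60.1% had a negative difference. The sum of the core subunits divided by the sum of the active methyltransferases, both per kb of exon, was 0.580 ± 0.0286 in DMSO and 0.510 ± 0.0662 in αKG (SD, n = 3), with overlapping groups and an exact two-sided permutation p of 0.3 (0.45 adjusted over the 6 ratios). Of the other ratios, that of Ash2l to Wdr5 was 2.59 to 2.75 in DMSO and 2.46 to 2.61 in αKG (exact permutation p = 0.2, adjusted p = 0.4). That of Ash2l to Kmt2c was 0.268 to 0.305 and 0.203 to 0.265 (exact permutation p = 0.1, adjusted p = 0.3). For Kmt2a to Kmt2b and Setd1b to Setd1a the exact permutation p was 0.4 and 0.6. With 3 libraries against 3 no p under 0.1 is possible, so none of the 6 ratios could pass. The ratios were not among the planned tests and were not corrected for exon length or GC content.

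**Figure D2:**
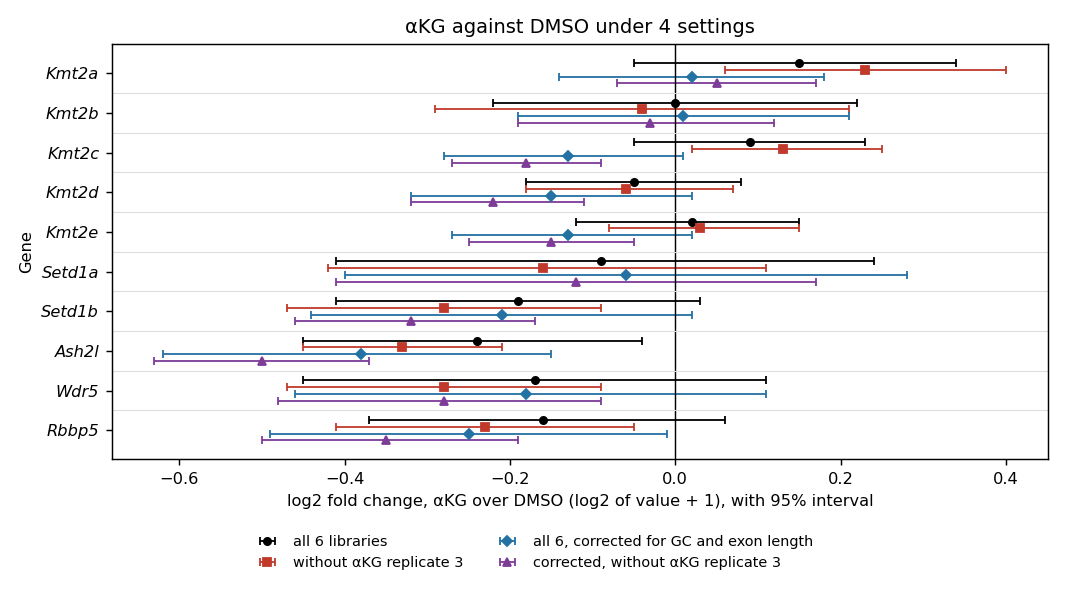
Log2 fold change of αKG over DMSO for the 10 genes (x axis) with 95% intervals, from all 6 libraries (black), without αKG replicate 3 (red), after correction for GC content and exon length (blue), and with both changes (purple). With all libraries uncorrected, the interval of Ash2l alone excludes 0, at −0.45 to −0.04, and the correction moves Ash2l, Kmt2d and Rbbp5 further below 0, Kmt2c and Kmt2e to below 0 and Kmt2a towards it. The corrected median of the genes with a mean of at least 50 was −0.16 with all libraries.

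Part of the set lay along a trend of the difference with exon length. In the 10183 genes whose mean reached 50, the median log2 difference was −0.21 for the 873 with under 2 kb of exon, −0.14 for 2 to 4 kb, 0.00 for 8 to 10 kb and 0.17 for the 347 genes with 15 kb or more. The genes of the set cover this range, from Wdr5 with 3.60 kb and Rbbp5 with 3.93 kb to Kmt2a with 16.67 kb and Kmt2c with 20.29 kb. Wdr5 (−0.17 against a median of −0.14 in its length class), Rbbp5 (−0.16 against −0.14), Kmt2b (0.00 against 0.00) and Kmt2a (0.15 against 0.17) lay close to their class. Ash2l (8.97 kb, median 0.00 in its class), Setd1b (12.07 kb, 0.06) and Kmt2d (19.93 kb, 0.17) lay below theirs. The trend was carried by αKG replicates 1 and 2, whose medians rose from −0.35 and −0.19 in the shortest to 0.24 and 0.23 in the longest class, and in αKG replicate 3 it ran from −0.07 to 0.04. It also followed GC content, from 0.01 below 42% to −0.16 at 58% or more. The corrected differences given for each gene are those after removal of both trends, whose origin was not tested.

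**Figure D3:**
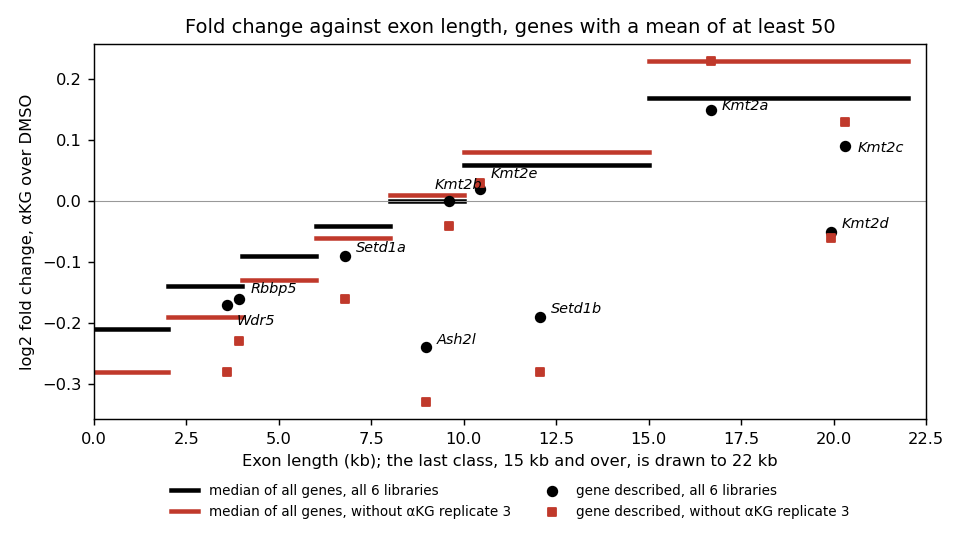
Log2 fold change of αKG over DMSO (y axis) against exon length in kb (x axis), with horizontal lines for the median of all genes with a mean of at least 50 in each length class and points for the 10 genes, from all 6 libraries (black) and without αKG replicate 3 (red). The class medians climb from −0.21 to 0.17, Wdr5, Rbbp5, Kmt2b and Kmt2a lie close to them in black, and Ash2l, Setd1b and Kmt2d lie below.

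Compared per length, all genes of the set but Setd1a were expressed above the median of protein-coding genes, which was 32.6 normalized counts per kb of exon over 14257 genes. Kmt2e led with a mean of 117 per kb over the 6 libraries, followed by Rbbp5 with 107, Kmt2d with 92.4, Kmt2c with 89.5, Kmt2a with 71.5, Kmt2b with 57.9, Setd1b with 54.7, Ash2l with 50.8, Wdr5 with 48.6 and Setd1a with 12.8. Of the 9 pairs of neighbours in this order, 8 had overlapping ranges over the libraries, so that only the gap between Wdr5 (41.2 to 54.5 per kb) and Setd1a (11.0 to 13.7 per kb) exceeded the spread. Per kb of exon not shared with another gene, Setd1a stood at 26.9, still the lowest. With the longest transcript as the length, Ash2l moved to the third place, at 123 per kb of transcript, because its longest transcript of 3.70 kb is much shorter than its 8.97 kb of exon.

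**Figure D4:**
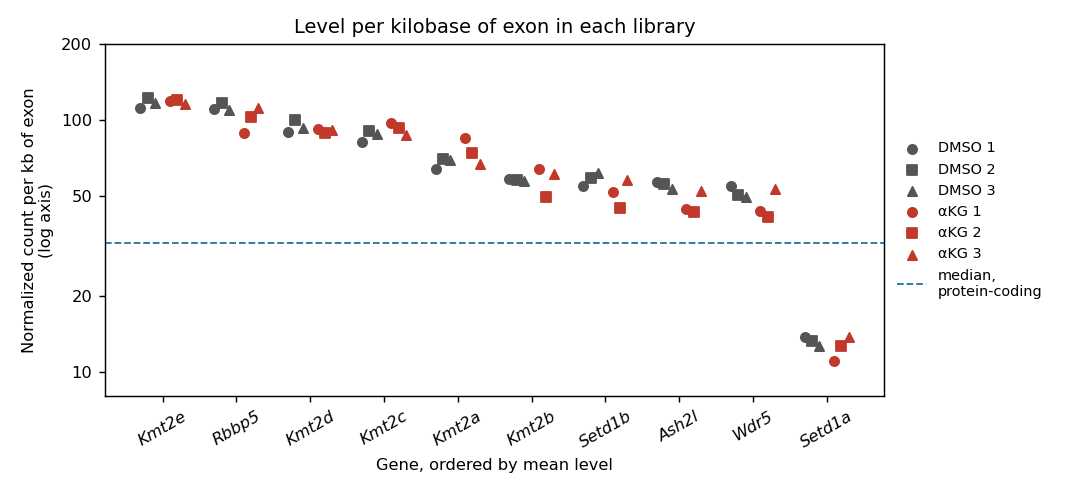
Normalized count per kb of exon in each of the 6 libraries for the 10 genes in order of their mean, on a log axis, with the median of protein-coding genes, 32.6, as a dashed line. Setd1a is the one gene below the line, and neighbouring genes above it overlap.

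Within the active methyltransferases, summed per kb of exon, Kmt2c and Kmt2d together made up 47.4 to 48.7% in DMSO and 47.2 to 50.2% in αKG. Kmt2a and Kmt2b made up 32.8 to 33.7% in DMSO and 33.9 to 37.1% in αKG, and Setd1a and Setd1b 18.4 to 19.5% and 15.6 to 18.8%. The share of the Kmt2a and Kmt2b pair was above the DMSO range in each αKG library, a difference that was not tested. Shares of the enhancer pair overlapped between the groups.

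Partners that set the complexes apart were read from a list of 15 genes with Dpy30, of which 14 were listed. None passed the test in either direction (limma, 4 at an unadjusted p under 0.05, all lower), and the median difference was −0.18. Over all genes 12.4% were lower at that p, as were 2169 of the 10183 genes with a mean of 50 or more, whose median was −0.07. The most abundant were Bod1l, a SETD1A partner, with 1300 to 1424 normalized counts in DMSO and 1418 to 1572 in αKG (0.10 ± 0.07, limma adjusted p = 0.319), and Hcfc1, which links KMT2 and SETD1 complexes to promoters, with 1032 to 1094 and 832 to 1098 (−0.17 ± 0.10, limma adjusted p = 0.276). Without αKG replicate 3, 9 of the 14 were called, all lower. In that fit 17.9% of all genes were called lower, and 3209 of the 10183 genes with a mean of 50 or more.

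Among 8 other genes with reported H3K4 methyltransferase activity, none passed (limma, 3 at an unadjusted p under 0.05, 1 higher and 2 lower). At that p 15.7% of all genes were higher and 12.4% lower. Of the 10183 genes with a mean of 50 or more, 1600 were higher and 2169 lower. Ash1l, a trithorax-group SET protein now mostly linked to H3K36, had 2115 to 2323 normalized counts in DMSO and 2251 to 2318 in αKG, with a difference of 0.04 ± 0.05 (limma adjusted p = 0.641). Setd7, which monomethylates H3K4 and other proteins, had 1499 to 1526 and 1374 to 1598, with a difference of −0.05 ± 0.07 (limma adjusted p = 0.617).

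Of the 8 genes for H3K4 demethylases, the enzymes that undo the mark, 1 passed the test as lower, where 0.952% of all genes did. All 8 had a negative difference, as had 60.1% of the genes with a mean of 50 or more, and the median was −0.27 beside −0.07 in those genes. The called gene, Kdm5c, an X-linked demethylase of H3K4me2 and H3K4me3, had normalized counts of 1032, 1042 and 1017 in DMSO and of 834, 831 and 903 in αKG. The groups did not overlap, where 14.6% of all genes were lower without overlap. Among genes with a mean of at least 50, 39.3% did not overlap in either direction. The difference of Kdm5c was −0.27 ± 0.06 (limma adjusted p = 0.0494). This call lay next to the threshold and was lost under 11 of 18 alternative settings, without a change of direction. Without αKG replicate 3 the list had 5 genes called lower and 0 higher, beside 17.9% and 19.3% of all genes. Of the 10183 genes with a mean of 50 or more, 3209 were called lower and 1978 higher in that fit.

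S-adenosylmethionine, the methyl donor of the writers, is made by the MAT2A enzyme and its regulator MAT2B, and the genes for its supply and recycling formed a list of 7, of which 6 were listed. None passed (limma, 1 lower at an unadjusted p under 0.05), 3 had a positive and 3 a negative difference, and the median was −0.04. At that p 12.4% of all genes were lower, and 2169 of the 10183 genes with a mean of 50 or more, whose median was −0.07. Ahcyl1, a homologue of the enzyme that removes the product of methylation, had 926 to 951 normalized counts in DMSO and 955 to 1049 in αKG (0.10 ± 0.06, limma adjusted p = 0.302). Mtr, the methionine synthase, had 644 to 681 and 543 to 679 (−0.15 ± 0.09, limma adjusted p = 0.3).

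**Figure D5:**
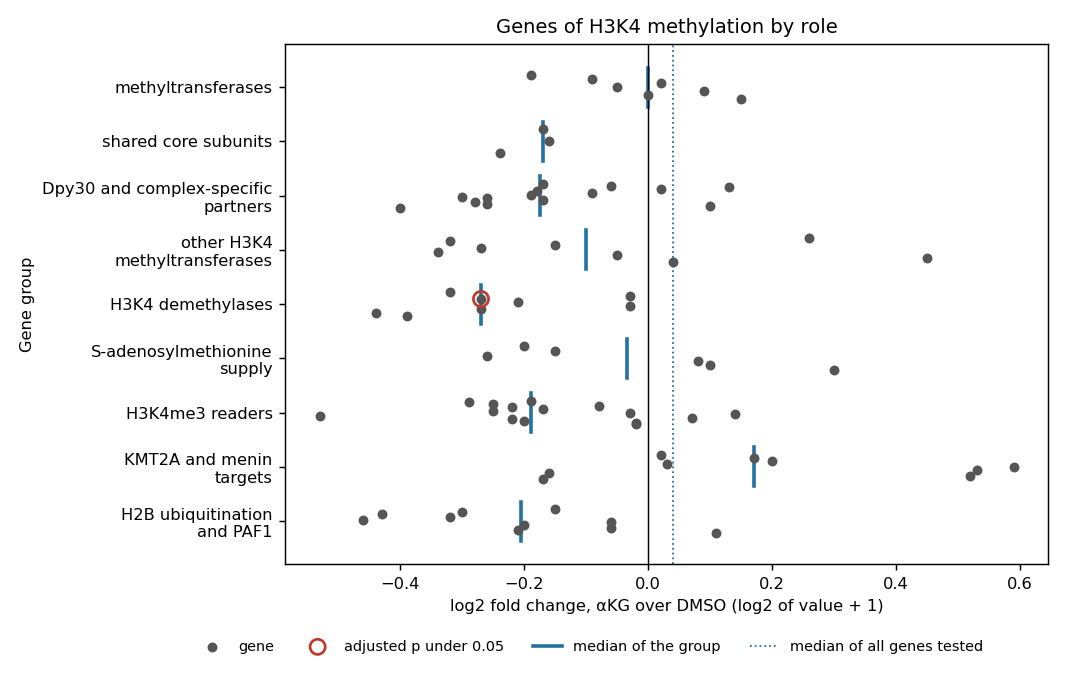
Log2 fold change of αKG over DMSO (x axis) for each gene of the methyltransferases, the core subunits and 7 groups of genes that act with, against or downstream of them (rows), with the median of each group as a blue bar, the median of all genes tested as a dotted line and called genes circled. Kdm5c at −0.27 is the single circled gene, and the medians run from −0.27 for the demethylases to 0.17 for the KMT2A and menin targets.

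The cultures held CMs in every library: the summed normalized count of 10 CM markers was 78512 to 81162 in DMSO and 83095 to 114816 in αKG, and none of the 10 was called. Ttn carried most of this sum, and the other 9 summed to 26943 to 27485 in DMSO and 27526 to 31499 in αKG. Without αKG replicate 3, 5 of the 10 CM markers were called higher and 1 lower, beside 19.3% and 17.9% of all genes. Markers of other cell types differed between libraries. The sum of 10 endothelial markers was 2023 to 2150 in DMSO and 1407 to 1533 in αKG. With all 6 libraries 7 of the 10 were called lower, beside 0.952% of all genes. Of the 10183 genes with a mean of 50 or more, 173 were called lower in that fit. The other 3, Tek, Flt1 and Vwf, had positive differences of 0.38, 0.27 and 0.47, and Tek and Flt1 were called higher without αKG replicate 3 (0.70 and 0.54). The sums of 10 fibroblast and 7 epicardial markers were 5822 to 6098 and 442 to 475 in DMSO, 11273 and 1040 in αKG replicate 1, and 10920 and 1019 in αKG replicate 2. In αKG replicate 3 they were 5639, below the DMSO range, and 441, next to its low end. There Tbx18, most of the epicardial sum in DMSO, and Krt19 were above their DMSO range, and the other epicardial markers below. Fibroblast markers also went both ways there, with Col1a1, Col1a2 and Lum above and Postn, Pdgfra, Tcf21, Thy1 and Fn1 below. None of the fibroblast and epicardial markers was called with all 6 libraries. Without αKG replicate 3, 8 of the 10 fibroblast and all 7 epicardial markers were called higher. In that fit 19.3% of all genes were called higher, and 1978 of the 10183 genes with a mean of 50 or more. The sum of 8 smooth muscle and pericyte markers was 3245 to 3363 in DMSO and 3534 to 3943 in αKG. With all 6 libraries 2 were called higher, Cnn1 and Cspg4, beside 2.83% of all genes. Most of the sum in DMSO was Abcc9, which had 2020 to 2114 there and 1495 to 2060 in αKG (−0.28 ± 0.10). The difference was positive for 5 of the 8 markers and negative for 3. Macrophage markers summed to 22 to 35 in DMSO and 24 to 41 in αKG, with Ptprc, Adgre1, C1qa and C1qb among those not listed and none called. Proliferation markers summed to 3407 to 6087 in DMSO and 7195 to 8115 in αKG. With all 6 libraries 3 of the 10 were called higher, beside 2.83% of all genes. Of the 10183 genes with a mean of 50 or more, 425 were called higher in that fit. The αKG libraries with high fibroblast and epicardial sums are those in which Kmt2a was above and Setd1b, Wdr5 and Rbbp5 below every DMSO library, whereas Ash2l was below them in αKG replicate 3 as well. The part of these cells in the differences was not tested. In RNA of a whole culture, fewer cells of a type and less RNA per cell cannot be told apart.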

How the data were processed

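Total RNA of 6 CM cultures was sequenced, 3 in DMSO and 3 in αKG. Per the study's methods and the submitters' processing notes, the authors trimmed reads (Trimmomatic 0.39), aligned them to mm10 (GRCm38.p5; STAR 2.7.10a), summed per gene the reads that touched an exon, dropping those that matched several genes or places (featureCounts 2.0.3), and used DESeq2 1.30.1. The deposited values are treated as a score: counts that the authors had divided by size factors and rounded to whole numbers, so no count model was fitted to them. Counting was not stated to use strand. Column totals differed by 2.41%. The value of 1 read, estimated from gaps between low whole numbers (0.9258 to 1.1188), gave the estimated reads; no molecular identifiers were stated, so PCR copies may inflate them and the counting errors given are for sampling only.

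All 6 libraries entered limma 3.58.1 (R 4.3.3, Python 3.11.15) with treatment as the only term, a variance trend, pseudocount 1, which understates changes of low genes, and no filter. All 10 genes had means of at least 10, and 30 of the 759 called genes did not. Exon length and GC content came from GENCODE M21 (GRCm38), where 99.0% of genes had the same position; corrected values are residuals of a smooth trend over both (natural splines, 5 degrees of freedom). Of runs of 75 exon bases, 0 to 2.28% recurred in another gene, except 8.24% for Kmt2e and 50.83% for Setd1a.

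DMSO replicates 2 and 3 differed by little more than sampling noise over all genes (chi-square 1.03 per gene), but by 12.2 per gene over proliferation markers, and were counted as separate samples.

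The 10 genes and all lists were chosen with earlier results of these data known. All 10 genes were named; from each further list, the called genes were named or, with none called, the 2 of highest mean. Dpy30 and the marker genes fall outside that rule. Lists were described by counts and medians, without a set test. Alternatives covered the replicate number as a block, a filter, pseudocount, scaling, variance model, threshold, exon length and GC content, and leaving out each library; averaging DMSO replicates 2 and 3, the correction without αKG replicate 3 and unshared exon length were added after seeing the data.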

Additional observations from a re-analysis of the deposited data

How the results depend on the processing

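Over all genes, 759 were called. The count was 46 with the replicate block, 346 with pseudocount 0.1, 27 with no variance trend, 349 by limma-voom on estimated reads, 1235 with the GC and length correction, 1746 with that correction and the replicate block, 19 with DMSO replicates 2 and 3 averaged, 8751 with the correction and without αKG replicate 3, and 5648 at unadjusted p. It was 0 without αKG replicate 1 or 2, 152, 3 and 4 without DMSO replicates 1, 2 and 3, and 7466 without αKG replicate 3. Of the called genes, 74.8% were higher in αKG in the main setting and 42.5% with correction for length and GC content.

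Of the 10 genes, 0 were called in the main setting, 1 at unadjusted p and 7, all lower (Kmt2c, Kmt2d, Kmt2e, Setd1b, Ash2l, Wdr5 and Rbbp5), with the correction and without αKG replicate 3. Leaving out single libraries gave 0 to 4, the 4 without αKG replicate 3. The replicate block called none of the 10. No pairing by replicate number was seen: deviations from the group means correlated between equal numbers at −0.0744, 0.136 and 0.00192 over 13409 genes. These deviations include αKG replicate 3, which stood apart, so the check cannot exclude a pairing.

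Of 180 alternative values for the 10 genes, 155 kept direction and side of the threshold, 10 passed it in the same direction and 15 changed sign, of which 2 (Kmt2c and Kmt2e, corrected and without αKG replicate 3) also passed it. Kmt2b, at 0.00 and at −0.07 to 0.11 when single libraries were left out, was −0.02 with equal totals, −0.01 without DMSO replicate 3, −0.07 without αKG replicate 1, −0.04 without αKG replicate 3, −0.00 with DMSO replicates averaged and −0.03 with the correction without αKG replicate 3. Kmt2c was −0.13 with the correction, with or without the block, and −0.18 also without αKG replicate 3. Kmt2e, at −0.02 to 0.05 when single libraries were left out, was −0.01 with equal totals and with quantile normalization, −0.02 without DMSO replicate 1, −0.13 with the correction, with or without the block, and −0.15 also without αKG replicate 3. Of other named genes, Bod1l was −0.06 with the correction, with or without the block, and −0.08 also without αKG replicate 3; Ash1l was −0.16 and −0.20 there and −0.02 with quantile normalization; Meis1 was −0.16 and −0.21; and Bptf was 0.01 without DMSO replicate 2 or αKG replicate 2. Of 9 neighbouring pairs in the order of levels, 8 overlapped, 5 with the longest transcript as length, and 5 to 8 when single libraries were left out, the 5 without αKG replicate 1. Apart from length and GC content, whose effect the correction shows by construction, the cause of these changes was not tested. At 88.3 estimated reads per library, counting alone gives Setd1a an error of 10.6%, the largest of the set.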

Other observations

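Genes that act downstream or upstream of H3K4 methylation were read from 3 further lists. Of 15 genes for proteins that bind H3K4me3, none passed the test in αKG (limma, 4 lower at an unadjusted p under 0.05), 13 had a negative difference and the median was −0.19. Over all genes 12.4% were lower at that p, as were 2169 of the 10183 genes with a mean of 50 or more. Of these more highly expressed genes 60.1% had a negative difference, with a median of −0.07. Bptf, the reader in the NURF remodelling complex, had 1537 to 1644 normalized counts in DMSO and 1512 to 1619 in αKG (−0.02 ± 0.06, limma adjusted p = 0.86). Dido1, a PHD-finger protein, had 1417 to 1505 and 1176 to 1470 (−0.20 ± 0.09, limma adjusted p = 0.171).

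Of 10 genes for H2B ubiquitination and the PAF1 complex, on which H3K4 trimethylation depends, none passed (limma, 6 lower at an unadjusted p under 0.05). The difference was negative for 9, the median was −0.20, and 7 were called lower without αKG replicate 3. Over all genes 12.4% were lower at unadjusted p and 17.9% called lower without that library. Of the 10183 genes with a mean of 50 or more, these counts were 2169 and 3209. In the same genes 60.1% had a negative difference, with a median of −0.07. Rnf20, an E3 ligase for H2B, had 800 to 856 normalized counts in DMSO and 758 to 834 in αKG (−0.06 ± 0.07, limma adjusted p = 0.564). Wac, which helps to recruit that ligase, had 734 to 753 and 599 to 746 (−0.15 ± 0.09, limma adjusted p = 0.287).

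Of 13 classical targets of KMT2A and menin, 9 were listed and none passed (limma, 2 higher at an unadjusted p under 0.05), beside 15.7% of all genes. There were 7 positive differences and a median of 0.17, which was −0.02 after the correction for exon length and GC content. The corrected median was −0.05 over all genes and −0.16 over the genes with a mean of 50 or more. Meis1, a homeobox gene active in CMs of the neonatal heart, had 615 to 668 normalized counts in DMSO and 633 to 658 in αKG (0.03 ± 0.07, limma adjusted p = 0.83). Meis2 had 587 to 678 and 686 to 757, without overlap (0.20 ± 0.08, limma adjusted p = 0.136), and 0.02 after the correction. Over all genes 13.7% were higher without overlap, and 39.3% of those with a mean of 50 or more did not overlap in either direction.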
